A study of Homo sapiens with 6 samples.

Results

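The surface antigens of plasma cells that mark multiple myeloma or serve as targets of its therapy, other than the receptor BCMA, were followed in H929 cells. They were 8 genes of the 62703 in the deposited tables, chosen by name: CD38, SDC1, GPRC5D, SLAMF7, LY9, CD48, CD28 and CD27. H929 is an established human multiple myeloma line, labelled as wild type, and was grown in RPMI-1640 with fetal bovine serum. Cells received 1 µM Mi-2, an inhibitor of the protease MALT1, or the solvent DMSO, for 24 h, and RNA of 3 libraries per treatment was sequenced. All libraries came from this single line, so other myelomas were not sampled. The titles number the libraries of a treatment 1 to 3 but mark every one of them as bio rep 1. Whether these 3 were separate cultures is not said. The p-values therefore measure the spread between these libraries, which may be technical.

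Plasma cells are the antibody-secreting end stage of B cells, and they carry few of the surface proteins of their precursors. CD38 is an ectoenzyme that consumes NAD+, and the antibody daratumumab binds it. SDC1 encodes syndecan-1 (CD138), a proteoglycan whose heparan sulfate chains hold growth factors at the cell surface and whose outer part can be shed. GPRC5D is an orphan G protein-coupled receptor bound by the bispecific antibody talquetamab. SLAMF7 (bound by elotuzumab), LY9 (CD229) and CD48 belong to the SLAM family of immune receptors, whose genes lie together on chromosome 1. CD28 and CD27 are co-stimulatory receptors best known from T cells, and both can be present on plasma cells.

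With Mi-2, CD38 and SDC1 mRNA fell and LY9 and GPRC5D mRNA rose. CD38 was 1.81-fold and SDC1 1.62-fold lower, and LY9 was 1.54-fold and GPRC5D 1.40-fold higher. SLAMF7, CD48 and CD28 were expressed in every library and did not pass the threshold, and CD27 was close to absent. Of 7 members with enough counts to test, 4 were called at an adjusted p under 0.05 by the quasi-likelihood test of edgeR, 2 in each direction. Over all 16082 genes tested, 11.0% were called, 5.02% higher and 6.03% lower. The members were chosen with earlier results of these data known, so setting these shares side by side tests nothing about the set. The ranges of the groups, in CPM (counts relative to the library total, scaled between libraries by TMM), did not overlap for the same 4 members, as for 32.3% of all genes tested. The median log2 fold change was -0.10 over the 7 members and 0.0050 over all genes tested. LY9 alone was called when DMSO library 2 was left out, and 2 members when Mi-2 library 1 or 2 was. Calls over all genes tested fell as well, from 1777 of 16082 with all libraries to 636 of 16463 without DMSO library 2. Without Mi-2 library 1 or 2 they were 518 of 16481 and 1256 of 16468. RNA of a whole culture was measured, so fewer cells that express a gene and less RNA per cell cannot be told apart, and protein at the surface was not measured.

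**Figure D1:**
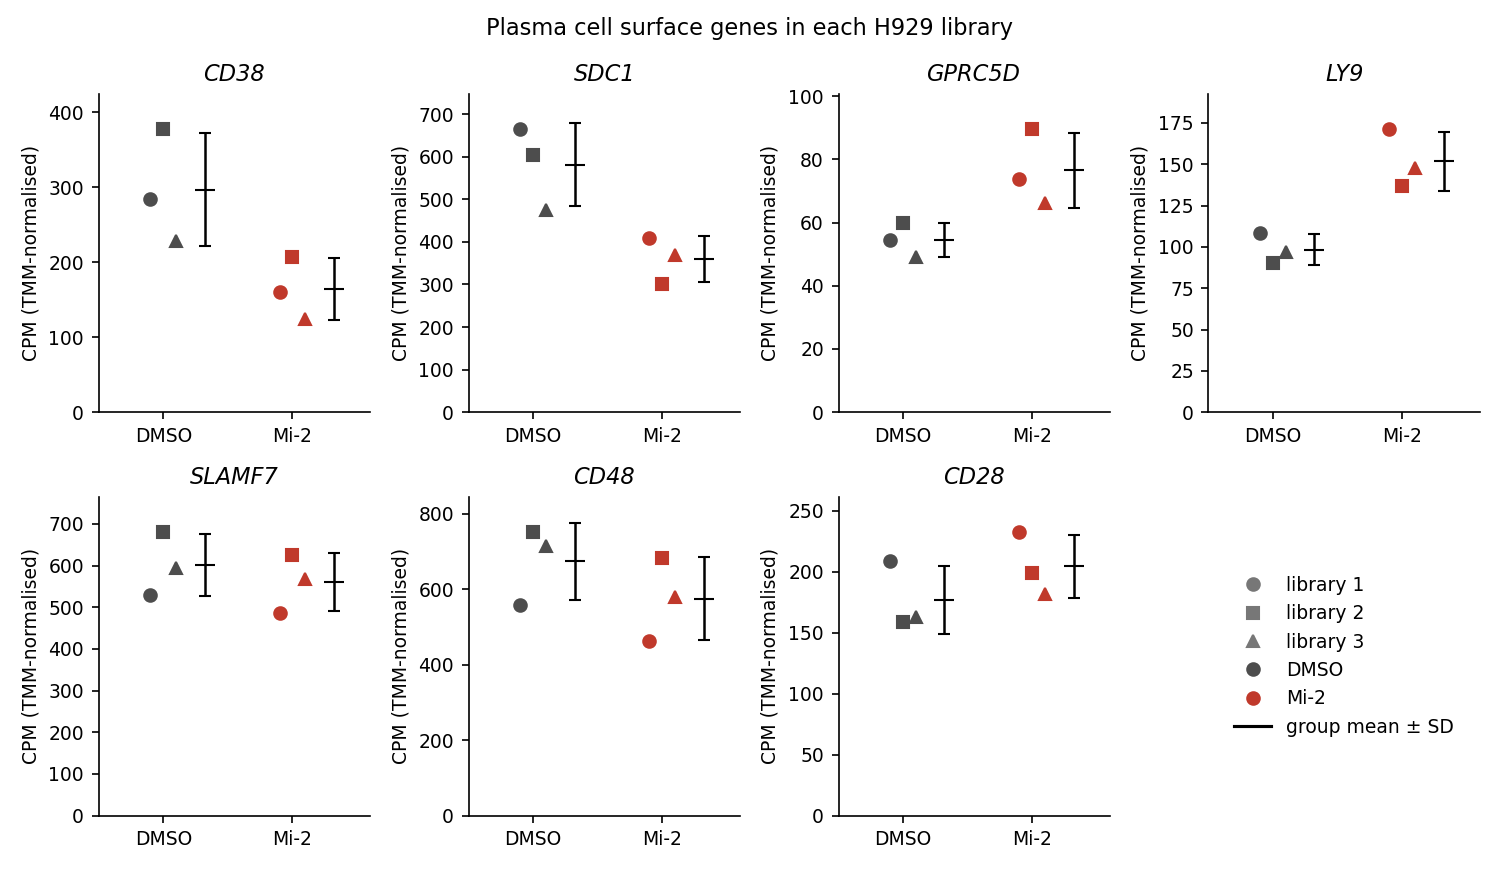
CPM of the 7 tested genes in each library, with DMSO in grey and Mi-2 in red, a marker shape for each library number and the group mean ± SD (n = 3) in black; every axis starts at 0. The groups are apart for CD38, SDC1, GPRC5D and LY9 and overlap for SLAMF7, CD48 and CD28.

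Total estimated counts ran from 19980700 to 23756700 per library, and the 7 tested members had between 1068 and 16980 estimated counts in every library. Of 14 genes listed for plasma cell identity, 13 passed the filter on low counts. The list also holds FGFR3, a gene activated by a myeloma translocation. Summed TPM of the list (TPM is a level corrected for gene length and library total) ranged from 27777 to 30279 with DMSO and from 28825 to 31037 with Mi-2. Of the 13 tested, IRF4, MZB1, IGHA1, DERL3 and FKBP11 were called higher and FGFR3 lower, beside 11.0% called over all genes tested. With a library left out, DERL3 and IRF4 were each called in 1 of 6 fits and IGHA1 in 2 of 6 (edgeR adjusted p up to 0.141, 0.165 and 0.0964). MS4A1, the B cell antigen CD20, had at most 0.14 TPM in any library. Of 13 T and NK cell markers 2 were tested, CD3E and NCAM1, and CD3D, CD8A and CD8B had no counts. NCAM1 is also in the list of other surface antigens of plasma and myeloma cells used below. Of 10 myeloid markers 1 was tested, and of 10 fibroblast, endothelial and epithelial markers 4 were tested while COL1A2 and CDH5 had no counts. CD3E (0.50 ± 0.11, log2 fold change ± SE), CD68 (0.94 ± 0.14), KRT18 (1.06 ± 0.18) and PECAM1 (0.35 ± 0.10) were called higher. The call of CD3E was lost without DMSO library 2 (adjusted p 0.0783), and PECAM1 was called in none of the fits that left out a library (0.0506 to 0.177). Of 10 B cell markers 4 were tested, and of 6 erythroid and platelet markers 2, with 0 called by edgeR in either list (1 and 0 at an unadjusted p under 0.05). Summed TPM was 87.7 to 93.8 with DMSO and 97.2 to 118 with Mi-2 for T and NK cell markers, 29.4 to 40.0 and 56.6 to 78.6 for myeloid markers, 69.99 to 90.4 and 89.2 to 125 for fibroblast, endothelial and epithelial markers, 6.50 to 7.42 and 6.11 to 8.38 for B cell markers, and 0.55 to 16.25 and 2.25 to 19.85 for erythroid and platelet markers. The part of these genes in the results below was not tested.

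Before any change is considered, the level of each gene per length, in TPM, sets its place among the others. CD48 was the highest with DMSO, at 919 ± 140.2 TPM (mean ± SD, n = 3), and no other member reached its lowest library. SLAMF7 (293 ± 42.1 TPM) and SDC1 (261 ± 31.9 TPM) followed, and their ranges overlapped. LY9 (87.3 ± 10.7 TPM), CD38 (79.0 ± 26.2 TPM), GPRC5D (59.8 ± 8.95 TPM) and CD28 (46.9 ± 8.92 TPM) came after these, each overlapping with its neighbour among the 4. For comparison, TNFRSF17, the gene of BCMA, stood at 758 ± 138 TPM. By mean TPM over all libraries CD48 ranked 155th and CD28 2365th among all genes in the table.

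With Mi-2 the order of the lower members was different. CD48 (776 ± 137 TPM) and SLAMF7 (270 ± 30.0 TPM) were again the highest, and SDC1 (166 ± 14.5 TPM) now overlapped with LY9 (137 ± 21.0 TPM). GPRC5D (82.2 ± 12.9 TPM) was above CD28 (53.0 ± 7.66 TPM) in every library, and CD28 overlapped with CD38 (43.6 ± 9.81 TPM). CD38 thus went from the fifth place with DMSO to the seventh. The summed level of all 8 genes was 1746 ± 179 TPM with DMSO and 1528 ± 143 TPM with Mi-2, and these ranges overlapped.

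**Figure D2:**
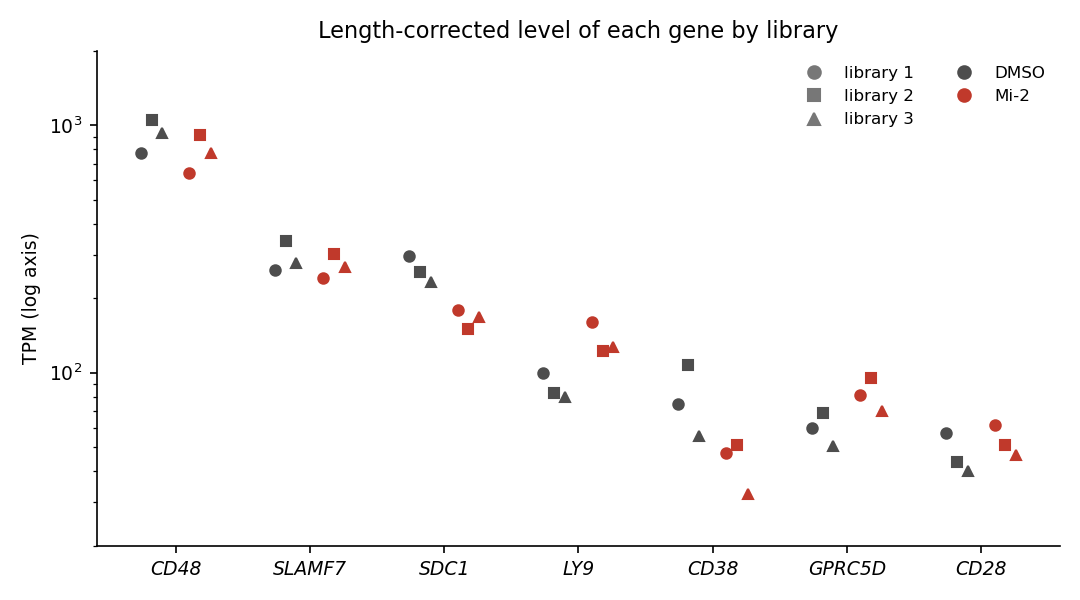
TPM of the 7 tested genes in each library on a log axis, with genes in the order of their DMSO means, DMSO in grey, Mi-2 in red and a marker shape for each library number. CD48 is the highest gene in every library, LY9 and GPRC5D sit higher with Mi-2, and SDC1 and CD38 sit lower.

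CD38 lies on the plus strand of chromosome 4, from 15778275 to 15853230 (GENCODE 29 on GRCh38, as for all coordinates of genes here). It measured 284, 378 and 228 CPM across DMSO libraries 1 to 3, against 161, 207 and 124 CPM across Mi-2 libraries 1 to 3. All Mi-2 libraries were below all DMSO libraries, and library 2 was the highest and library 3 the lowest within each group. The log2 fold change was -0.86 ± 0.21 (SE), with a 95% interval of -1.32 to -0.39 (edgeR adjusted p = 0.0296). This was the widest error among the 7 genes. The call was lost without DMSO library 2 (-0.65, edgeR adjusted p 0.105), Mi-2 library 1 (0.101) or Mi-2 library 3 (0.0681), and limma on log2(TPM + 1) did not call it (-0.82, adjusted p 0.115).

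SDC1 lies on the minus strand of chromosome 2, from 20200797 to 20225433. It measured 665, 604 and 475 CPM across DMSO libraries 1 to 3, against 409, 300.1 and 369.9 CPM across Mi-2 libraries 1 to 3. The groups did not overlap, with 475 CPM as the lowest DMSO value and 409 CPM as the highest Mi-2 value. Its log2 fold change was -0.69 ± 0.15, with a 95% interval of -1.02 to -0.36 (edgeR adjusted p = 0.0180). Limma on log2(TPM + 1) also called it, and the edgeR call was lost without DMSO library 2 (adjusted p 0.0692) or Mi-2 library 2 (0.0563).

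GPRC5D lies on the minus strand of chromosome 12, from 12940775 to 12952147. It measured 54.4, 60.0 and 49.2 CPM across DMSO libraries 1 to 3, against 73.7, 89.7 and 66.3 CPM across Mi-2 libraries 1 to 3. All Mi-2 libraries were above all DMSO libraries. Its log2 fold change was 0.49 ± 0.12, with a 95% interval of 0.22 to 0.76 (edgeR adjusted p = 0.0328). The value stayed positive with any library left out (0.36 to 0.58), but the call held only without Mi-2 library 3 (edgeR adjusted p 0.0210). Omitting DMSO library 1, 2 or 3 gave 0.0701, 0.0616 and 0.120 and omitting Mi-2 library 1 or 2 gave 0.0852 and 0.0828, none under the threshold of 0.05, and limma on log2(TPM + 1) did not call it (adjusted p 0.131). The antisense gene GPRC5D-AS1 covers the whole gene on the other strand. Whether counting used strand is not given in the sources used here, but GPRC5D-AS1 was assigned at most 10 estimated counts in any library.

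LY9 lies on the plus strand of chromosome 1, from 160796074 to 160828261. It measured 108, 90.0 and 96.8 CPM across DMSO libraries 1 to 3, against 171, 137 and 148 CPM across Mi-2 libraries 1 to 3. The lowest Mi-2 library was above the highest DMSO library. Its log2 fold change was 0.63 ± 0.11, with a 95% interval of 0.38 to 0.87 (edgeR adjusted p = 0.00902). Of the 4 called members, LY9 alone was called in each of the 6 fits that left out a library (edgeR adjusted p 0.0121 to 0.04465).

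The promoters of the called genes are shown because these genes moved in opposite directions in cells whose NF-κB signalling was the study's subject. Promoters of 6 of the 8 members, all but SLAMF7 and LY9, were taken from the table of RefSeq promoters (GRCh38.p14) used here. The 250 bases before the start site were searched on both strands for the κB motif GGGANTTTC, which NF-κB binds, for the motif GAAANNGAA of interferon regulatory factors, and for the E-box CACGTG. Motifs found are in capitals. Each sequence is written 5′ to 3′ on the strand of its gene, at chr4:15778078-15778274 (plus strand, ended at the GENCODE 29 start) for CD38, chr12:12952171-12952420 (minus strand) for GPRC5D and chr2:20225476-20225725 (minus strand) for the upstream start of SDC1.
CD38: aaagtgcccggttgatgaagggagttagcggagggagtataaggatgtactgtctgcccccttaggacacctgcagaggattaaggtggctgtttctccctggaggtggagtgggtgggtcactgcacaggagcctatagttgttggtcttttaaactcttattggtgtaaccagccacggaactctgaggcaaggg
GPRC5D: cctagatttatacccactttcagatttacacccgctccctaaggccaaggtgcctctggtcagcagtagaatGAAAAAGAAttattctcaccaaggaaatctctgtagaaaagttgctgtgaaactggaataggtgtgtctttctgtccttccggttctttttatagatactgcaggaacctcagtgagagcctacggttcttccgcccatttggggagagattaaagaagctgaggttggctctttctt
SDC1: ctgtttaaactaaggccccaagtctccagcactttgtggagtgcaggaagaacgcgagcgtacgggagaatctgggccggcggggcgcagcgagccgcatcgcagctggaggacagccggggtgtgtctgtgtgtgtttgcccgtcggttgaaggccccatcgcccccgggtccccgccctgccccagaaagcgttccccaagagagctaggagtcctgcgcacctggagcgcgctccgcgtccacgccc

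The κB motif was in none of the windows of the 6 members, and 1.12% of all 35116 promoters in the table held it. The GAAANNGAA motif occurred once in CD38, which fell, beginning 17 bases before the RefSeq start, and once in GPRC5D, which rose, beginning 178 bases before it. It was in 6.88% of all promoters. The CD38 match, GAAACAGAA, lies past the end of the sequence printed above, in the first exon of GENCODE 29, which starts 53 bases before the RefSeq start. The E-box, in 6.34% of all promoters, was in none of the 6. In base composition the windows differed, with 66.4% and 75.2% G and C at the 2 starts of SDC1, 52.4% in CD38, 44.4% in GPRC5D and 43.2% in CD48, beside a median of 58.0% over all promoters. These matches describe letters in a short window and do not show that a factor binds or fails to bind.

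SLAMF7 lies on the plus strand of chromosome 1, from 160739057 to 160754821. It measured 529, 679.6 and 595 CPM across DMSO libraries 1 to 3, against 486, 627 and 568 CPM across Mi-2 libraries 1 to 3. The groups overlapped, and the log2 fold change was -0.10 ± 0.12, with a 95% interval of -0.38 to 0.17 (edgeR adjusted p = 0.645). CD48, whose protein is held in the membrane by a lipid anchor and binds CD2 and CD244, lies on the minus strand of chromosome 1, from 160678746 to 160711851. It measured 558, 751 and 714 CPM across DMSO libraries 1 to 3, against 462, 682 and 579 CPM across Mi-2 libraries 1 to 3. These ranges also overlapped, with a log2 fold change of -0.23 ± 0.15 and a 95% interval of -0.58 to 0.11 (edgeR adjusted p = 0.376). Each Mi-2 library was below the DMSO library of the same number, for SLAMF7 as well. With a term for library number, edgeR called CD48 (adjusted p 0.0144) and not SLAMF7 (0.186). An antisense gene overlaps CD48 and was assigned at most 65.9 estimated counts in any library.

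CD28 lies on the plus strand of chromosome 2, from 203706475 to 203738912. It measured 209, 159 and 163 CPM across DMSO libraries 1 to 3, against 232, 199 and 182 CPM across Mi-2 libraries 1 to 3. DMSO library 1 exceeded Mi-2 libraries 2 and 3, and the log2 fold change of 0.21 ± 0.13 had a 95% interval of -0.08 to 0.50 (edgeR adjusted p = 0.330). Each Mi-2 library was above the DMSO library of the same number, and edgeR with a term for library number called CD28 (adjusted p 0.0334). The intervals of SLAMF7, CD48 and CD28 still allow changes of some size, so these genes are not shown to have stayed level. CD27, on the plus strand of chromosome 12 from 6444867 to 6451718, had 0 estimated counts in all DMSO libraries and 0, 1 and 4.02 in Mi-2 libraries 1, 2 and 3. A count of 0 allows up to 3 counts, or 0.132 to 0.15 CPM in the DMSO libraries. No fold change is given, and CD27 was not among the genes tested.

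**Figure D3:**
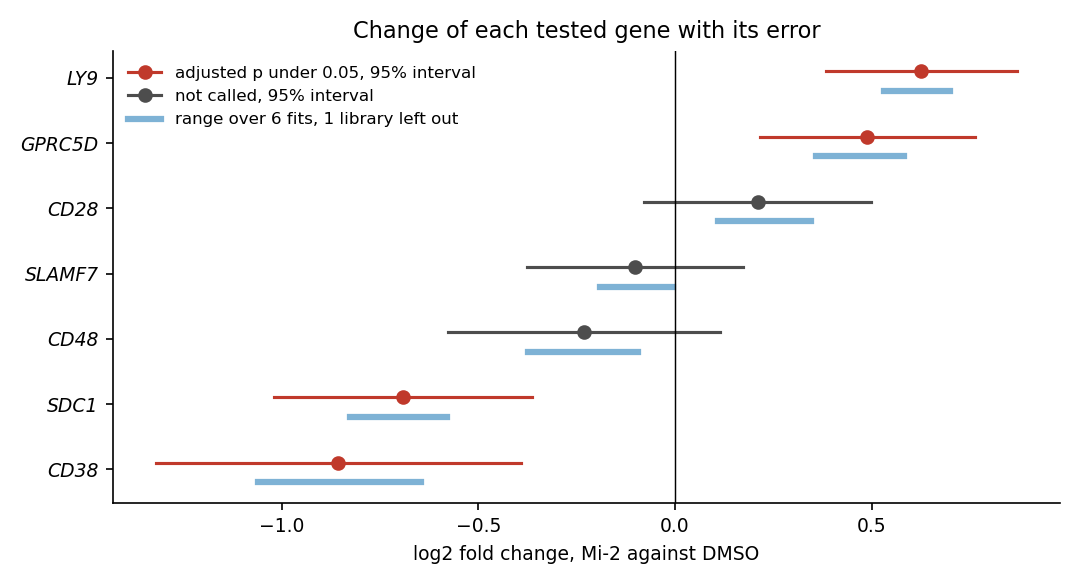
Log2 fold change (Mi-2 against DMSO) of the 7 tested genes with its 95% interval, in red where edgeR called the gene and in grey otherwise, and in blue the range of the value over the 6 fits that each left out a library. The intervals of CD38, SDC1, GPRC5D and LY9 lie to one side of 0, and those of SLAMF7, CD48 and CD28 include it.

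The SLAM genes sit side by side on chromosome 1 but gave different values. CD48 and SLAMF7 are 27.2 kb apart and SLAMF7 and LY9 41.3 kb apart. The ratio of LY9 to SLAMF7 in TPM, which does not depend on scaling between libraries, was 0.381, 0.243 and 0.288 in DMSO libraries 1, 2 and 3 and 0.668, 0.408 and 0.473 in Mi-2 libraries 1, 2 and 3. Every Mi-2 library was above every DMSO library, and the ratio was 1.69-fold higher with Mi-2 (exact permutation p = 0.1, two-sided, the smallest that 3 against 3 allows). The ratio of LY9 to CD48 was 1.86-fold higher (exact permutation p = 0.1), and that of SLAMF7 to CD48 1.10-fold higher with overlapping groups (exact permutation p = 0.2). The other SLAM receptors were near the limit of detection. SLAMF1, SLAMF6, SLAMF8, SLAMF9 and CD84 did not pass the filter on low counts, and CD244, 1.90 kb beyond LY9, had 0.888 ± 0.456 CPM under DMSO against 0.809 ± 0.141 CPM under Mi-2 (-0.13 ± 0.43).

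Ratios were also taken between genes that are targets of different antibodies. They were chosen after the values had been seen, 6 in all with the SLAM ratios, and each was tested by an exact permutation test whose smallest p is 0.1. Adjusted over the 6 (Benjamini-Hochberg), every exact permutation p of 0.1 became 0.15. No ratio could have been under 0.05, before or after the adjustment, so these tests could not call one. GPRC5D over CD38 in TPM was 0.803, 0.641 and 0.918 in DMSO libraries 1, 2 and 3 and 1.71, 1.87 and 2.15 in Mi-2 libraries 1, 2 and 3. CD38 was above GPRC5D in every DMSO library and below it in every Mi-2 library, and the ratio was 2.44-fold higher with Mi-2 (exact permutation p = 0.1). GPRC5D over SDC1 was 2.16-fold higher with Mi-2 (0.230 ± 0.0350 and 0.501 ± 0.117, SD, exact permutation p = 0.1). CD38 over SDC1 had overlapping groups, 0.303 ± 0.102 with DMSO and 0.265 ± 0.0726 with Mi-2 (exact permutation p = 0.7).

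Within each treatment the members varied between libraries, often in the same order of library numbers under both treatments. For 5 of the 7 tested members the order of the 3 libraries was the same with DMSO and with Mi-2. How many of all genes tested kept their order was not counted, so this is not shown to set the members apart. Over all genes tested, deviations of same-numbered libraries from their group means correlated at 0.409, 0.0593 and 0.261. CD38 and GPRC5D were highest in library 2 and lowest in library 3, SLAMF7 and CD48 highest in library 2 and lowest in library 1, and LY9 highest in library 1 and lowest in library 2. SLAMF7 and CD48 had a Pearson correlation of 0.951 over the 6 libraries, in log2 CPM, and CD38 and LY9 of -0.844. These 6 points share the treatment and any effect of the library number, so the correlations only describe these libraries. Among 10894 genes with a symbol and an average log2 CPM of at least 2, those most like LY9 were GOLGA1 (r = 0.9998), a Golgi protein, and PINK1 (0.998), a mitochondrial kinase. For CD38 they were TUBA4A (0.994) and CD2AP (0.992), for SDC1 SCO2 (0.990) and TRIB1 (0.986), and for GPRC5D GOLGA4 (0.997) and ANKIB1 (0.996). With 6 points such values are common, since 859 genes had r of at least 0.9 with LY9, 314 with CD38, 286 with GPRC5D and 144 with SDC1.

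The nearest tested protein-coding genes on each side that do not overlap a member were taken as a view of the loci. Of 12 that are no members, 3 were called, all higher, beside 11.0% called over all genes tested. They were LAPTM4A near SDC1 (149 kb away, 0.40 ± 0.09), TNFRSF1A, a TNF receptor gene near CD27 (103 kb, 0.77 ± 0.15), and RAPH1 near CD28 (171 kb, 0.73 ± 0.15). SDC1 fell beside LAPTM4A, and PUM2 on its other side was not called (-0.11 ± 0.09). The neighbours of CD38, FAM200B (-0.24 ± 0.24) and TAPT1 (0.23 ± 0.14), and those of GPRC5D, DDX47 (-0.32 ± 0.11) and HEBP1 (-0.10 ± 0.17), were not called. Nor were VAMP1 beside CD27 (-0.14 ± 0.20), PARD3B beside CD28 (-0.01 ± 0.20) and VANGL2 beside CD48 (0.11 ± 0.43). TAPBPL, which overlaps the end of CD27 by 29 bases, was left out of this count and was not called (0.28 ± 0.10, edgeR adjusted p = 0.0984). CD27-AS1, on the other strand over most of CD27, was not called either (0.79 ± 0.23, edgeR adjusted p = 0.0559), but was in 5 of 17 alternatives. TNFRSF1A kept its call with any library left out. LAPTM4A lost it without DMSO library 2 or 3 or Mi-2 library 1 or 2 (edgeR adjusted p up to 0.115), and RAPH1 in the fits omitting DMSO library 2, DMSO library 3 and Mi-2 library 1 (up to 0.0695).

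Genes that act with CD38 in NAD+ and adenosine metabolism showed 2 rises and 1 fall among 15 tested of 18, with a median log2 fold change of 0.03. Over all genes tested, 11.0% were called. NMNAT1, the nuclear enzyme that completes NAD+ synthesis, went from 4.21 ± 0.575 to 6.65 ± 0.348 CPM (0.66 ± 0.17), and QPRT, which makes NAD+ from tryptophan products, from 35.8 ± 4.37 to 49.7 ± 4.10 CPM (0.47 ± 0.11). The fall was in ENTPD1 (CD39), which degrades extracellular ATP (-0.84 ± 0.18). BST1, the paralogue of CD38, did not pass the filter on low counts. Leaving out DMSO library 2 or Mi-2 library 2 took the count of 3 to 1, and leaving out DMSO library 3 or Mi-2 library 1 took it to 0 by edgeR, with 4 at an unadjusted p under 0.05 in either fit. Calls over all genes tested went from 1777 to 636, 1256, 693 and 518 with these libraries left out, in the same order. NMNAT1 was called in 1 of these 6 fits, QPRT in 2 and ENTPD1 in 3 (edgeR adjusted p up to 0.130, 0.0946 and 0.0726). On log2(TPM + 1), limma tested 14 and called 0, with 4 of them at an unadjusted p under 0.05.

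Around SDC1, 24 of 30 genes of heparan sulfate proteoglycans, their synthesis and shedding were tested, of which 3 rose and none fell by edgeR (median 0.07). The share called was near the 11.0% called over all genes tested. EXT1, a polymerase of the heparan sulfate chain, went from 45.8 ± 4.20 to 61.5 ± 4.44 CPM (0.43 ± 0.10), and B4GALT7, which builds the linker to the core protein, from 29.1 ± 1.58 to 41.4 ± 2.69 CPM (0.51 ± 0.09). SULF1, which trims sulfate from the chain outside the cell, was the other (1.63 ± 0.28). SDC2 and SDC3 had 1.12 ± 0.596 and 2.13 ± 0.597 CPM with DMSO and were not called, and SDC4 did not pass the filter. Of the shedding proteases, ADAM17 (0.31, edgeR adjusted p = 0.0866) and ADAM10 (0.13, edgeR adjusted p = 0.555) were not called, and MMP9 had no counts. Omitting DMSO library 2 took the count of 3 to 1, and omitting Mi-2 library 3 took it to 5. Calls over all genes tested went from 1777 to 636 and 1581 in these fits. EXT1 lost its call without DMSO library 2 or 3 or Mi-2 library 1 (edgeR adjusted p up to 0.0973) and B4GALT7 without DMSO library 2 (0.0532), while SULF1 kept its call with any library left out.

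GPRC5D had little company from its own family. GPRC5A and GPRC5C did not pass the filter on low counts, and GPRC5B, with 0.645 ± 0.337 CPM under DMSO against 0.389 ± 0.104 CPM under Mi-2, was not called (-0.71 ± 0.51, edgeR adjusted p = 0.407). Of these relatives of GPRC5D only GPRC5B was tested. Its unadjusted p was not under 0.05, and neither DESeq2 nor limma-voom called it.

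Among 14 receptors and adaptors of SLAM signalling other than the members, 6 were tested (median -0.03). Of these 1 was called, beside 11.0% of all genes tested. FYN, a kinase that SLAM receptors recruit through the adaptor SAP, rose from 25.8 ± 1.499 to 36.9 ± 2.40 CPM (0.52 ± 0.10, edgeR adjusted p = 0.0116), and none fell. SAP itself (SH2D1A) and its relative SH2D1B did not pass the filter on low counts. The phosphatase gene PTPN11 had -0.26 (edgeR adjusted p = 0.105) and INPP5D 0.01 (0.928). FYN was not called without Mi-2 library 1 (edgeR adjusted p 0.0565).

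Partners of CD28 and CD27 were mostly scarce. CD80 did not pass the filter, CD86 had 0.626 ± 0.147 CPM and CD70, the ligand of CD27, 0.683 ± 0.574 CPM with DMSO. Of 27 genes of the TNF receptor and CD28 families and their signalling, 18 were tested (median -0.05), 1 rose and 3 fell. The share called over all genes tested was 11.0%. ICOSLG, the ligand of the CD28 relative ICOS, went from 16.4 ± 1.32 to 10.3 ± 0.692 CPM (-0.67 ± 0.12, edgeR adjusted p = 0.0110), and CD276 (B7-H3) from 9.55 ± 2.27 to 16.5 ± 1.35 CPM (0.79 ± 0.17, edgeR adjusted p = 0.0200). The other falls were the adaptors TRAF2 (-0.43 ± 0.12) and TRAF3 (-0.47 ± 0.10). Leaving out DMSO library 2 or Mi-2 library 1 took the count of 4 to 1, and leaving out DMSO library 3 took it to 2. Calls over all genes tested went from 1777 to 636, 518 and 693 with these libraries left out, in the same order. ICOSLG was called with any library left out, and CD276 lost its call when DMSO library 2 or Mi-2 library 1 was omitted (edgeR adjusted p up to 0.0788). Among these fits TRAF2 passed in 1, that without Mi-2 library 2 (otherwise up to 0.160), and TRAF3 in 3, all but those omitting DMSO library 2, DMSO library 3 and Mi-2 library 1 (up to 0.0918). On log2(TPM + 1), limma tested 11 and called 0, with 5 of them at an unadjusted p under 0.05.

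A wider list of 52 other surface antigens of plasma and myeloma cells had 43 tested genes, of which 4 rose and 6 fell (median -0.04). Over all genes tested, 5.02% were called higher and 6.03% lower. FGFR3, the receptor kinase activated by the t(4;14) translocation, measured 514, 502 and 513 CPM across DMSO libraries 1 to 3, against 313, 296 and 316 CPM across Mi-2 libraries 1 to 3. The groups were far apart and the libraries within a group close together (-0.72 ± 0.08, edgeR adjusted p = 0.00209). TFRC, the transferrin receptor, went from 751 ± 48.0 to 517 ± 58.8 CPM (-0.54 ± 0.10), and CXCR4, a homing receptor for bone marrow, from 4.71 ± 0.728 to 1.92 ± 0.171 CPM (-1.29 ± 0.22). CD1D, which presents lipids to T cells, had 17, 11 and 10 estimated counts in DMSO libraries 1, 2 and 3 and 0, 2 and 1 in Mi-2 libraries 1, 2 and 3. With 38 against 3 counts the ratio, scaled by library totals, was 13.6 with an exact 95% interval of 4.32 to 68.98 that covers counting error only (edgeR adjusted p = 0.0153). CD1D passed the filter on low counts through its DMSO libraries alone, so its entry into the test depended on the group in which it was higher. The remaining called falls were CD47 and CD320, whose values are not given here.

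Among the rises, CD79B, a chain of the B cell receptor, went from 28.6 ± 3.60 to 48.0 ± 7.59 CPM (0.75 ± 0.14), and IL6R, a receptor for the myeloma growth factor IL-6, from 896 ± 38.6 to 1190.1 ± 54.8 CPM (0.41 ± 0.09). SELPLG, the selectin ligand PSGL-1 (0.37 ± 0.09), and INSR, the insulin receptor (0.36 ± 0.09), also rose. FCRL5, another antibody target, had 39.4 ± 10.7 CPM under DMSO against 45.0 ± 4.33 CPM under Mi-2 and was not called (0.19 ± 0.17, edgeR adjusted p = 0.523). Omitting DMSO library 2 took the count of 10 to 4 and omitting Mi-2 library 1 took it to 3, and limma on log2(TPM + 1) called 3 of 40. Over all genes tested, calls went from 1777 of 16082 to 636 of 16463 and 518 of 16481 with these libraries left out. Limma on log2(TPM + 1) called 610 of 13981. FGFR3 and CXCR4 were called in all 6 fits that left out a library. CD1D and CD79B lost theirs without Mi-2 library 1 (edgeR adjusted p 0.0628 and 0.0513), TFRC in the fits omitting DMSO library 2 and Mi-2 library 1 (up to 0.0621) and IL6R without DMSO library 1 or 2 (up to 0.0784). INSR was called only without Mi-2 library 2 or 3 (otherwise up to 0.116), and SELPLG only without DMSO library 3 (otherwise up to 0.130).

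**Figure D4:**
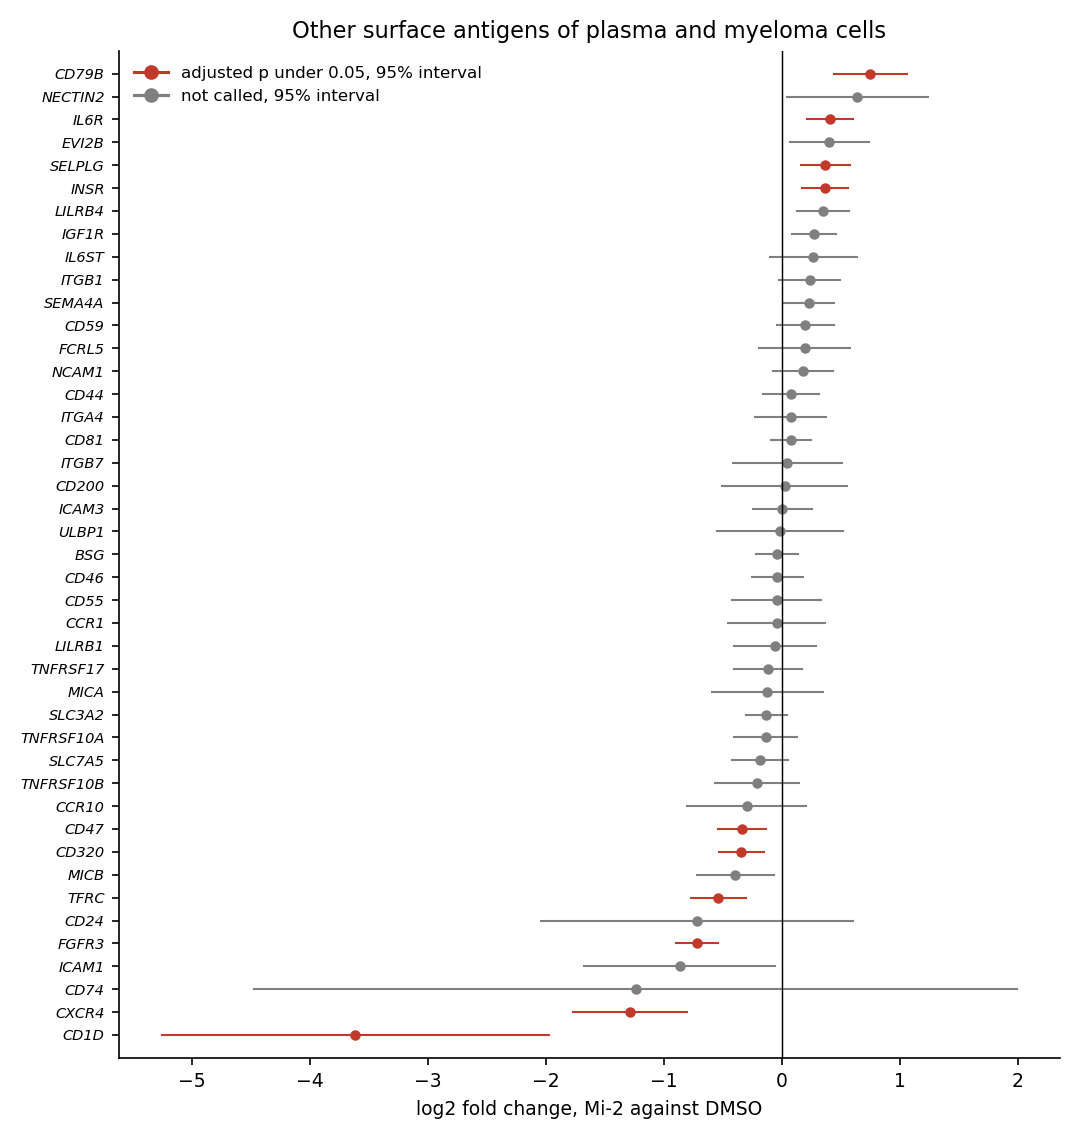
Log2 fold change (Mi-2 against DMSO) with its 95% interval for the 43 tested genes of the list of other surface antigens, ordered by value, in red where edgeR called the gene and in grey otherwise. The 6 called falls include CD1D and CXCR4 at the lower end, and CD1D passed the filter on low counts through its DMSO libraries alone. The 4 called rises end at CD79B with 0.75, and the wide interval of CD74 goes with its spread between libraries.

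Of 35 transcription factors of B cells and plasma cells, 31 were tested, 1 rose and 3 fell (median 0.10). This too was near the share of 11.0% called over all genes tested. IRF4, on which myeloma cells depend, measured 1888, 1646 and 1643 CPM across DMSO libraries 1 to 3, against 2213, 2162 and 2200.4 CPM across Mi-2 libraries 1 to 3 (0.35 ± 0.09, edgeR adjusted p = 0.0441). The falls were in MYB, MYC and IRF1 (-1.69, -0.46 and -0.34). Omitting DMSO library 2 or Mi-2 library 1 took the count of 4 to 0 by edgeR, with 11 and 10 at an unadjusted p under 0.05. Omitting DMSO library 3 left 1, and omitting Mi-2 library 2 left 2. Calls over all genes tested went from 1777 to 636 and 518 without DMSO library 2 or Mi-2 library 1. They were 693 and 1256 without DMSO library 3 or Mi-2 library 2. Limma on log2(TPM + 1) called 1 of 29. With a library left out, IRF4 was called only without DMSO library 1 (edgeR adjusted p otherwise up to 0.165) and IRF1 only without Mi-2 library 3 (up to 0.0886), while MYB and MYC passed in the fits omitting DMSO library 1 and Mi-2 library 3 and in no other of the 6 (up to 0.109 and 0.0809).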

How the data were processed

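Paired-end RNA-seq of total RNA from H929 cells was read on a NovaSeq instrument, as the labels' protocols state. Named without roles in the submitters' processing notes are RSEM 1.3.3, StringTie 2.1.0, HISAT2 2.1.0, fastp 0.19.5 and the build GRCh38.p13. The authors deposited a table of estimated counts, partly fractional and not scaled between libraries, and a table of TPM values. For RNA selection and strandedness, nothing is given in the sources used here.

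The 8 members were matched by Ensembl ID. Estimated counts were rounded, genes with low counts were removed (filterByExpr, minimum count 10, total 15, leaving 16082 genes), and Mi-2 was compared with DMSO in edgeR 4.0.16 (R 4.3.3) by its quasi-likelihood test with TMM scaling and no other term, with Benjamini-Hochberg adjustment over all genes tested and a threshold of 0.05. Standard errors were derived from each fold change and its test statistic. The biological coefficient of variation was 14.2%. Libraries within a group differed by 16.4 to 23.5 times the chi-square of counting alone, so none was a copy. Log2 CPM for correlations used CPM plus 0.1.

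The alternatives comprised DESeq2 1.42.0, limma-voom, upper-quartile or RLE scaling, other filters, removal of immunoglobulin genes and the 20 highest genes, limma 3.58.1 on log2(TPM + 1) and log2(TPM + 0.1) (mean TPM of at least 1, or no filter, a scale that understates changes of low genes), omission of each library in turn, and a block for library number. Named genes were the members, up to 4 called genes per list and direction, the nearest tested neighbours, the 2 most correlated genes of each called member, and TNFRSF17 and IRF4. Other genes of the lists are named for their role or to complete a set of calls, after their values were seen. The members and lists were chosen with earlier results of these data known.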

Additional observations from a re-analysis of the deposited data

How the results depend on the processing

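The direction of each of the 7 tested members was the same in all 17 alternatives. CD27 did not pass the filter on low counts and is not among these values. With limma on log2(TPM + 1), on log2(TPM + 0.1) and on log2(TPM + 1) with no TPM filter, GPRC5D had 0.45, 0.46 and 0.45 and CD38 -0.82, -0.83 and -0.82, and neither was called. With no TPM filter SDC1 (-0.65) and LY9 (0.64) were not called either. The number of members called was then 2, 2 and 0, the last with 4 at an unadjusted p under 0.05. Of all genes tested, 610 of 13981, 647 of 13981 and 0 of 31463 were called (the last with 3808 at an unadjusted p under 0.05). The cause was not tested.

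With a library left out, log2 fold changes ran from 0.36 to 0.58 for GPRC5D, from -1.06 to -0.65 for CD38 and from -0.83 to -0.58 for SDC1. The number called ran from 1 to 3 members, from 518 to 1581 of all genes, 0 to 1 of the SLAM list, 1 to 4 of the co-stimulation list, 0 to 3 of the NAD+ list, 1 to 5 of the heparan sulfate list, 3 to 8 of the other antigens and 0 to 4 of the transcription factors. With all libraries, 4 members and 1777 of all genes were called. Fits with an arm of 2 libraries assume a like spread in both groups.

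Library numbers pair nothing in the labels, and the main fit did not take them as pairs. Deviations of same-numbered libraries correlated at 0.409, 0.0593 and 0.261, and those of differently numbered libraries at -0.326 to 0.0795. Only Mi-2 library 2 correlated better with another number, DMSO library 3 (0.0795), than with its own (0.0593). Whether same-numbered libraries share a day or culture is not given and was not tested. With the number as a block, edgeR called 3826 of 16082 genes tested (1791 higher, 2035 lower). It called 6 members, CD28 (0.21, adjusted p 0.0334) and CD48 (-0.24, adjusted p 0.0144) in addition. DDX47, the neighbour of GPRC5D, was then called as well (-0.32, edgeR adjusted p 0.0239). The lists then had 2 SLAM, 7 heparan sulfate, 20 other antigen and 10 transcription factor genes.

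With no filter on low counts, edgeR called 2762 of 31459 genes tested (1221 higher, 1541 lower), 16 of 50 other antigens and 10 of 35 transcription factors. With limma on log2(TPM + 1) and on log2(TPM + 0.1), 0 co-stimulation genes (5 at an unadjusted p under 0.05), 0 NAD+ genes (4), 3 other antigens and 1 transcription factor were called. With no TPM filter 0 were called in each list, where 3 SLAM, 6 co-stimulation, 4 NAD+, 5 heparan sulfate, 11 other antigen and 6 transcription factor genes had an unadjusted p under 0.05. Reversed signs, all in genes not called, were PARD3B (0.0145 with upper-quartile scaling, 0.0027 with limma-voom, 0.0033 with the block, and -0.17 to 0.13 with a library left out) and VANGL2 (-0.0214 with limma-voom, -0.35 to 0.40 with a library left out). With a library left out CD244 ran from -0.43 to 0.33, HEBP1 from -0.17 to 0.0055 and TNFRSF17 from -0.21 to 0.0109. Depth limits CD27, CD244, GPRC5B and CD1D, which had few or no counts.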

Other observations

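CD74, the invariant chain of HLA class II and itself an antibody target on B-lineage cells, varied more between libraries than between treatments. It had 7.01, 254 and 2127 estimated counts in DMSO libraries 1, 2 and 3 and 4, 54 and 1042 in Mi-2 libraries 1, 2 and 3, and was not called (log2 fold change -1.24 ± 1.44, edgeR adjusted p = 0.630). HLA-DPA1, a class II chain, stood at 15, 103 and 413 estimated counts under DMSO and at 14, 39 and 172 under Mi-2, in the same order. CIITA, the factor that switches on class II genes, stood at 96.2, 409 and 717 under DMSO and at 66.6, 106 and 188 under Mi-2. In each of the 3 genes library 3 was the highest and library 1 the lowest of its group, and the Mi-2 library was below the DMSO library of the same number. These genes were singled out after their values were seen, and the cause was not tested.

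CD1D lies on chromosome 1 at 158179947 to 158184896, near the Fc receptor-like genes. The call of CD1D rests on 38 against 3 counts, and CD1D passed the filter on low counts through its DMSO libraries alone. FCRL3 (-3.23 ± 0.23) and FCRL2 (-3.33 ± 0.31) there were called lower. FCRL5 (0.19 ± 0.17), FCRL1 (-1.03 ± 0.34, edgeR adjusted p = 0.0829) and CD5L (-0.55 ± 0.49) were not called. These genes were also chosen after their values were seen, and other genes of the stretch are not listed.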
